A study of Mus musculus with 4 samples.

Results

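The genes described here are 44 mouse genes of the lysosome: cathepsins other than Ctsk and Ctsg, other proteases, enzymes that break down glycans, sulfated glycans and lipids, lysosomal membrane proteins, the secreted and lysosomal protein progranulin, the glycoprotein Gpnmb, and the MiT transcription factors Tfeb, Tfe3 and Mitf. They were taken by symbol from a count table of 55487 Ensembl gene IDs, all 44 symbols matched 1 ID each, and all 44 were among the 17120 genes with enough counts to be tested. The libraries are bulk RNA-seq of skeletal stem cells sorted by surface antigens from enzyme-digested metaphysis of long bones of wild-type mice, 2 from sham-operated and 2 from ovariectomized animals. Removal of the ovaries lowers oestrogen, and the series title sets the comparison in the progression of osteoporosis. Every sample is labelled 8 weeks, without saying whether that is an age or a time since surgery. Every sample title, in both groups, also ends in the word control, and the titles do not say what it refers to. The sources used here do not give strain, age or the number of animals behind a library, and nothing says that the 2 libraries of a group came from separate animals, so p-values measure the spread between these libraries, which may be technical.

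Lysosomes are acidic organelles in which hydrolases degrade proteins, glycans, lipids and nucleic acids delivered by endocytosis, phagocytosis and autophagy. Most of the soluble enzymes are tagged with mannose 6-phosphate and carried there from the Golgi, and the limiting membrane is covered with heavily glycosylated proteins such as the Lamp proteins. The MiT factors are basic helix-loop-helix proteins that bind E-box sequences in the promoters of many lysosomal genes, and they are held in the cytoplasm when the kinase mTOR is active. In bone, secreted cathepsins and other lysosomal enzymes are best known from osteoclasts, while matrix-forming cells use lysosomes to turn over collagen and proteoglycan.

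The libraries held between 18291436 and 23721078 counts. Sort antigens were read as a check of the labelled cell type. Itgav (CD51) lay between 67.3 and 72.0 CPM (counts scaled to library size with TMM factors) and Cd200 between 155 and 305 CPM, the latter lower after ovariectomy (log2 fold change -0.73 ± 0.15 SE with an edgeR adjusted p of 0.0462), while Ptprc (CD45) lay between 3.55 and 9.55 CPM and Thy1 (CD90) between 0.134 and 0.211 CPM. Eng (CD105), an antigen absent from the stem cell gate as usually set, lay between 21.6 and 83.1 CPM and was higher in both ovariectomy libraries. Cartilage and bone matrix genes took most of the RNA among the marker lists, and 9 of 10 chondrocyte markers were lower after ovariectomy, with summed levels of 117542 and 107607 CPM in the sham libraries against 68144 and 61504 CPM after ovariectomy. Of 10 osteoblast markers, 5 were lower and 1 higher, and of 10 fibroblast markers, 8 were higher. Of all genes tested, 1.20% were lower and 2.98% higher. Of 9 pericyte and smooth muscle markers 2 were higher (Acta2 and Rgs5), with summed levels of 344 and 373 CPM in the sham libraries against 604 and 679.8 CPM after ovariectomy. These shifts move with the groups, and their part in the results below was not tested. In bulk RNA, a change in the share of cells of a type and a change in RNA per cell cannot be told apart.

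Because the MiT factors read E-boxes near transcription start sites, the promoters of the members were searched for them. RefSeq (GRCm38.p6) gave at least 1 promoter window, from 250 bases before to 50 after a start site, for 39 of the 44 members. The E-box CACGTG, which reads the same on both strands, was present in a window of 12 of the 39 members (30.8%), against 8.09% of 27025 genes with a window. These were Arsa, Ctsa, Ctsd, Ctsf, Ctsl, Gaa, Glb1, Lamp1, Lgmn, Mcoln1, Naglu and Sgsh. The longer palindrome TCACGTGA, which contains the E-box, was found in 3 members (7.69%, against 1.12% of genes), namely Ctsa, Ctsd and Mcoln1. The variant CATGTG, searched on both strands and never the same letters as the E-box, was found in 8 members (20.5%, against 15.9%). A match is a description of these letters and not a shown binding site.

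Stretches upstream of 4 start sites are shown: 3 of genes whose RNA differed between the groups (Gpnmb, which rose most, and Lgmn and Gaa, which fell) and Lamp1, which had the largest number of E-boxes among them. They come from RefSeq windows on GRCm38.p6, read 5′ to 3′ on the strand of the gene, and capitals mark CACGTG. The Gpnmb stretch is chr6:49036398-49036517 (plus strand, up to the start site), the Lgmn stretch chr12:102439096-102439181 (minus strand, at a start site that lies inside the annotated gene), the Gaa stretch chr11:119267783-119267868 (plus strand) and the Lamp1 stretch chr8:13159060-13159160 (plus strand).
Gpnmb: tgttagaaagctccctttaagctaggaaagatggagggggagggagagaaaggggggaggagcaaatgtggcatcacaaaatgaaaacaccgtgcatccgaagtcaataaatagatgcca
Lgmn: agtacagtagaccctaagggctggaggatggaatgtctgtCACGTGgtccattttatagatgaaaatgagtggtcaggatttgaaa
Gaa: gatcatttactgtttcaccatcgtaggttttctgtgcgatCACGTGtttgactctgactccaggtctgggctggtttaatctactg
Lamp1: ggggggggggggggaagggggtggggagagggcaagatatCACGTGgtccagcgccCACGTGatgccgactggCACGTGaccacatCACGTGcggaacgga

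Lamp1 held 4 copies, which began 61, 45, 28 and 15 bases before its start site. The single copy began 140 bases before the start site in Gaa and 49 bases before it in Lgmn. Gpnmb had none in its whole window, nor had any window of Tfeb, Tfe3 or Mitf. The copy in the Ctsl window began 236 bases before a start site that also lies inside the annotated gene, and that stretch is not shown.

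Ovariectomy was followed by a change in 6 of the 44 lysosomal genes, 4 higher and 2 lower, at an edgeR adjusted p under 0.05 over all genes tested. The genes that rose were Gpnmb (8.57-fold), Ctsl (2.10-fold), Lipa (1.82-fold) and Ctsb (1.64-fold), and those that fell were Lgmn (1.73-fold) and Gaa (1.44-fold). The members called made up 13.6%, against 4.18% of all genes tested. By direction, 9.09% were higher and 4.55% lower, against 2.98% and 1.20% of all genes. The members were chosen with earlier results of these data known, so these shares describe the list and do not test it. The members were also more abundant than most genes, with a median level of 102 CPM against 8.54 CPM for all genes tested. When the test was run on the 10086 genes whose mean level reached 5 CPM, 11 of 43 members were called (25.6%), against 10.9% of those genes. A floor of 5 CPM does not match genes to the level of the members, and genes of like level were not compared.

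The median log2 fold change of the members was 0.25, against -0.02 for all genes tested. A positive log2 fold change was found for 29 of the 44 (65.9%, against 48.7% of all genes). With library totals alone that number was 33, and the medians were 0.36 for the members and 0.09 for all genes. With an offset for GC content and length it was 28, and the medians were 0.12 and -0.11. Both ovariectomy libraries lay above both sham libraries for 23 members (52.3%, against 25.5% of all genes) and below them for 8 (18.2%, against 23.9%). At an unadjusted p under 0.05 there were 19 members (43.2%, against 18.4% of all genes). All of these shares come from 1 comparison of the same 4 libraries, whose earlier results were known when the members were chosen.

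Without ovariectomy replicate 1 or without ovariectomy replicate 2, edgeR called 0 members and 0 of all genes, with 12 members in each case, and 1788 and 1618 of all genes, at an unadjusted p under 0.05. The lone ovariectomy library is then assumed to vary like the sham pair, and since no gene at all was called, these fits do not show whether a member's call would hold. The log2 fold changes in them were 3.19 and 3.04 for Gpnmb, 0.73 and 0.72 for Ctsb, 1.04 and 1.13 for Ctsl, -0.90 and -0.65 for Lgmn, -0.54 and -0.48 for Gaa, and 1.05 and 0.69 for Lipa. The adjusted p of Gpnmb was 0.153 and 0.108 in those 2 fits, and the largest among the 6 genes was 0.485 (Lipa). Without sham replicate 1 and without sham replicate 2, the log2 fold changes were 3.18 and 3.04 for Gpnmb and 0.73 and 0.70 for Ctsb. They were 0.86 and 1.33 for Ctsl, and 0.91 and 0.84 for Lipa. For Lgmn they were -0.78 in both fits, and for Gaa -0.57 and -0.46.

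**Figure D1:**
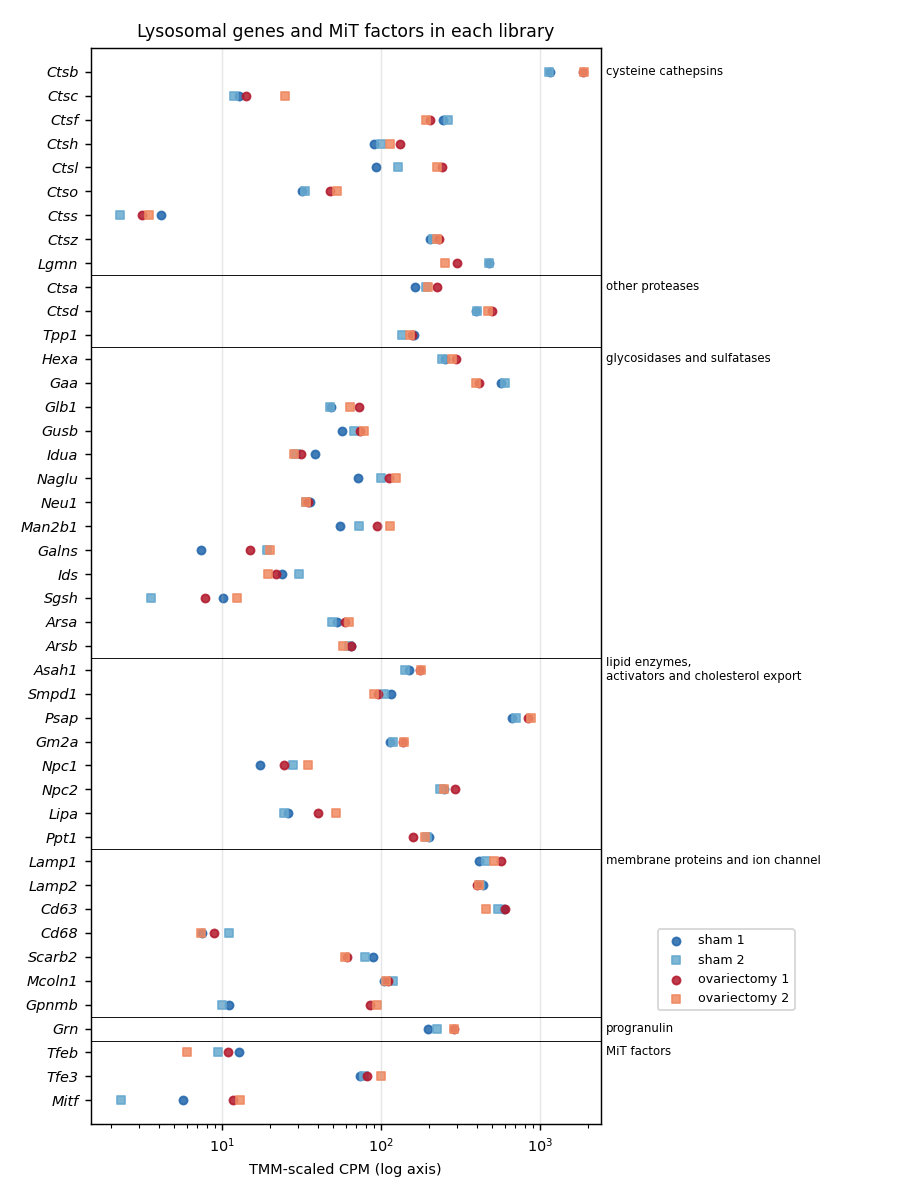
TMM-scaled CPM (log axis) of each of the 44 genes in the 4 libraries, ordered by role, with circles for replicate 1 and squares for replicate 2 of each group. Gpnmb lies at 11.1 and 9.97 CPM in the sham libraries and at 85.7 and 94.7 CPM in the ovariectomy libraries, while most other genes lie close together in all 4.

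Summed over the 44 genes, the level was 7799 and 7954 CPM in the sham libraries and 9200 and 8952 CPM in the ovariectomy libraries. Ctsb alone made up 60.7% of the difference between the group means, followed by Psap (14.3%), Ctsl (10.2%) and Lamp1 (8.75%), while Lgmn and Gaa entered with -16.8% and -14.9%. Without Ctsb the sums were 6641 and 6823 CPM in the sham libraries against 7333 and 7073 CPM after ovariectomy. The ovariectomy libraries were still the higher ones, by a smaller margin.

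Cysteine proteases, which here are 8 papain-like cathepsins and legumain and cut proteins in the acidic lumen, held 3 of the 6 calls. The share called in this group was 33.3%, against 4.18% of all genes tested. Ctsb (chromosome 14, 63122462 to 63145923, GRCm38), cathepsin B, was at 1159 and 1131 CPM in the sham libraries against 1867 and 1878 CPM after ovariectomy. It was the most abundant member by CPM, and its 2 libraries of a group were nearly equal in both groups. Its log2 fold change was 0.71 ± 0.09 SE (edgeR adjusted p = 0.00841). Ctsl (chromosome 13, 64359337 to 64370890), cathepsin L, was at 93.3 and 129 CPM in the sham libraries against 241 and 225 CPM after ovariectomy. The groups did not overlap, and the fold change was larger than that of Ctsb (log2 1.07 ± 0.17 SE, edgeR adjusted p = 0.0164), a difference between genes that was not tested. The Ctsl exons share 26.8% of their length with other genes, the largest part with Gm47123 on the other strand. Those of Ctsb share 12.8%, the largest part with Fdft1. Whether the counting used strand is not stated in the sources used here. Exons also overlap those of other genes by 12.8% for Hexa, 17.4% for Ctsa, 18.8% for Arsa, 21.6% for Sgsh and 39.9% for Arsb.

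Lgmn (chromosome 12, 102394084 to 102439813), legumain, an endopeptidase that cuts after asparagine and matures several cathepsins, went the other way. It was at 479.9 and 479 CPM in the sham libraries against 301.5 and 254 CPM after ovariectomy (log2 fold change -0.79 ± 0.12 SE with an edgeR adjusted p of 0.0159). The sham libraries were almost identical, and both ovariectomy libraries lay well below them. Per kilobase of exon, Lgmn was the second most abundant member in sham cells, at 206 CPM per kb, after Psap at 249.6 CPM per kb and before Ctsb at 189 CPM per kb. In ovariectomy cells it stood at 119.6 CPM per kb. That was below Psap (312), Ctsb (309), Ctsd (206), Lamp1 (202), Ctsz (158), Hexa (144) and Cd63 (143.5 CPM per kb).

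The other 6 genes of this family did not pass. Ctso was at 31.7 and 33.1 CPM in the sham libraries against 47.4 and 52.7 CPM after ovariectomy, without overlap (log2 fold change 0.63 ± 0.15 SE with an edgeR adjusted p of 0.0684), and was called with DESeq2 (adjusted p = 0.0272), with library totals (0.0386), with no filter (0.0152), at a mean of 5 CPM (0.0321) and without sham replicate 2 (0.0479). Ctsc, which activates serine proteases of blood cells, had 12.8 and 11.9 CPM in the sham libraries against 14.2 and 24.8 CPM after ovariectomy, so that 1 library set most of its difference. Ctsh, an aminopeptidase, and Ctsz, a carboxypeptidase, had log2 fold changes of 0.36 ± 0.14 SE and 0.13 ± 0.11 SE. Ctsf had one of -0.36 ± 0.11 SE, with 244 and 264 CPM in sham above 202 and 193 CPM in ovariectomy libraries (edgeR adjusted p = 0.142). Ctss, the cathepsin of antigen-presenting cells, was the least abundant member of the family at 4.10 and 2.27 CPM in the sham libraries against 3.13 and 3.48 CPM after ovariectomy, with overlapping groups.

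The 3 proteases of other classes were not called by edgeR, DESeq2 or limma-voom, and 1 (Ctsd) was at an unadjusted edgeR p under 0.05. Ctsd, the main aspartic protease of lysosomes, was at 393 and 401 CPM in the sham libraries against 497 and 472 CPM after ovariectomy (log2 fold change 0.29 ± 0.10 SE with an edgeR adjusted p of 0.199), without overlap. Its exons share 34.4% of their length with other genes, the largest part with the gene model Gm49369. How reads from the shared part were assigned was not tested. Ctsa, a carboxypeptidase that protects Neu1 and Glb1 from degradation, had a log2 change of 0.25 ± 0.14 SE, and Tpp1, which trims tripeptides from protein ends, one of 0.06 ± 0.13 SE with overlapping groups.

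Among the 13 glycosidases and sulfatases, 1 fell (7.69%, against 1.20% of all genes) and 0 rose (against 2.98% of all genes). A single call does not describe the group. Gaa (chromosome 11, 119267887 to 119285454), the acid glucosidase that breaks down glycogen in lysosomes, was at 564 and 606 CPM in the sham libraries against 416 and 398 CPM after ovariectomy. Both ovariectomy libraries lay below both sham libraries (log2 fold change -0.52 ± 0.11 SE with an edgeR adjusted p of 0.0415). The call was lost with library totals alone (adjusted p = 0.0725) and without sham replicate 2 (0.0531). Man2b1, the lysosomal mannosidase, had the next smallest p of the group, at 55.1 and 72.3 CPM in the sham libraries against 93.7 and 114 CPM after ovariectomy (log2 fold change 0.70 ± 0.18 SE with an edgeR adjusted p of 0.0801). It was called with DESeq2 (adjusted p = 0.00357), limma-voom (0.0387), library totals (0.0425), no filter (0.000412), a mean of 5 CPM (0.0239) and without sham replicate 2 (0.00483).

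Glb1, the acid galactosidase whose activity is used as a stain for senescent cells, was at 48.4 and 47.7 CPM in the sham libraries against 72.8 and 63.7 CPM after ovariectomy. The groups did not overlap, and the log2 fold change of 0.51 ± 0.14 SE did not pass (edgeR adjusted p = 0.104). Naglu, an enzyme of heparan sulfate breakdown, had a log2 change of 0.47 ± 0.18 SE, and was called without sham replicate 2 (adjusted p = 0.0137) and with no filter (0.0464). Hexa, Gusb and Arsa were higher in both ovariectomy libraries than in both sham libraries, with log2 fold changes between 0.22 and 0.29, and Ids was lower in both, at -0.40 ± 0.20 SE. For Idua, Neu1, Galns, Sgsh and Arsb the groups overlapped. Galns, a sulfatase of keratan sulfate, was at 7.36 and 19.3 CPM in the sham libraries, and Sgsh, the heparan sulfamidase, at 10.1 and 3.56 CPM. The sham libraries of these 2 genes differed by more than the group means did, and Galns was called higher without sham replicate 2 (adjusted p = 0.0168) and Sgsh without sham replicate 1 (0.0266).

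Of the 8 genes of lipid breakdown and cholesterol export, 1 rose (12.5%, against 2.98% of all genes). Lipa (chromosome 19, 34492318 to 34527474), lysosomal acid lipase, which frees cholesterol and fatty acids from lipoprotein lipids, was at 26.0 and 24.6 CPM in the sham libraries against 40.3 and 51.9 CPM after ovariectomy. The sham libraries were close to each other, the ovariectomy libraries less so, and the groups did not overlap (log2 fold change 0.86 ± 0.18 SE with an edgeR adjusted p of 0.0455). With upper-quartile scaling the adjusted p was 0.0545. Psap, the precursor of the saposins that help enzymes reach sphingolipids, was the most abundant member per kilobase of exon and lay at 667 and 702 CPM in the sham libraries against 838 and 874 CPM after ovariectomy. It was higher in both ovariectomy libraries, by 0.32 ± 0.10 SE on the log2 scale (edgeR adjusted p = 0.140). DESeq2 called it (adjusted p = 0.0345).

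Asah1, the acid ceramidase, and Gm2a, the activator of ganglioside breakdown, were also higher in both ovariectomy libraries, with log2 fold changes of 0.28 ± 0.11 SE and 0.25 ± 0.12 SE. Smpd1, the acid sphingomyelinase, and Ppt1, which removes palmitate from proteins, were lower in both, with log2 fold changes of -0.24 ± 0.13 SE and -0.18 ± 0.13 SE. None of these 4 passed (edgeR adjusted p between 0.252 and 0.544). Npc1 and Npc2, which pass cholesterol out of the lysosome, had overlapping groups and log2 fold changes of 0.39 ± 0.28 SE and 0.15 ± 0.13 SE.

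Of the 7 membrane proteins, Gpnmb was called (14.3%, against 4.18% of all genes). The other 6 were not, 2 of them (Lamp1 and Scarb2) at an unadjusted edgeR p under 0.05 and 0 called by DESeq2 or limma-voom. Gpnmb (chromosome 6, 49036546 to 49070929), a glycoprotein of lysosomes and melanosomes first described in cells of low metastatic potential and known in bone as osteoactivin, was at 11.1 and 9.97 CPM in the sham libraries against 85.7 and 94.7 CPM after ovariectomy. Every ovariectomy library lay far above every sham library (log2 fold change 3.10 ± 0.16 SE with an edgeR adjusted p of 0.000497). Its log2 fold change lay between 2.99 and 3.21 under all alternatives tried. Per kilobase of exon it went from 1.61 to 13.8 CPM per kb, which is from near the bottom of the 44 genes to about the level of Mcoln1 (14.4 CPM per kb).

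Lamp1 and Lamp2, the main glycoproteins of the lysosomal membrane, had log2 fold changes of 0.31 ± 0.11 SE and -0.07 ± 0.11 SE. Lamp1, with its 4 E-boxes, was at 414 and 455 CPM in the sham libraries against 568 and 511 CPM after ovariectomy, without overlap (edgeR adjusted p = 0.204). Scarb2, the carrier of glucocerebrosidase, was at 89.0 and 79.1 CPM in the sham libraries against 60.7 and 59.7 CPM after ovariectomy, also without overlap. Its log2 fold change of -0.48 ± 0.13 SE did not pass (edgeR adjusted p = 0.103) but was called at a mean of 5 CPM (0.0436). Cd63, a tetraspanin of late endosomes, and Mcoln1, the calcium channel of lysosomes, had overlapping groups and log2 fold changes of -0.10 ± 0.14 SE and -0.03 ± 0.13 SE. Cd68, a glycoprotein abundant in macrophages, was at 7.49 and 11.0 CPM in the sham libraries against 8.92 and 7.32 CPM after ovariectomy.

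Grn, the precursor of the granulins, was at 197 and 226 CPM in sham and at 288 CPM in both ovariectomy libraries. The groups did not overlap, and the log2 fold change of 0.45 ± 0.12 SE missed the threshold (edgeR adjusted p = 0.0958). It was called with DESeq2 (adjusted p = 0.00846), limma-voom (0.0394), library totals (0.0411), no filter (0.0344), a mean of 5 CPM (0.0459) and without sham replicate 2 (0.0319).

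The 3 MiT factors, which regulate many of the genes above, were not called by edgeR, with 1 (Mitf) at an unadjusted p under 0.05. Tfe3 was the most abundant at 73.7 and 77.8 CPM in the sham libraries against 81.6 and 99.9 CPM after ovariectomy (log2 fold change 0.26 ± 0.15 SE with an edgeR adjusted p of 0.419). Tfeb was at 12.7 and 9.44 CPM in the sham libraries against 10.9 and 6.02 CPM after ovariectomy, with overlapping groups (log2 fold change -0.39 ± 0.35 SE with an edgeR adjusted p of 0.655). Per kilobase of exon in sham cells, Tfe3 stood at 8.18, Tfeb at 1.95 and Mitf at 0.648 CPM per kb.

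Mitf (chromosome 6, 97807052 to 98021349), the factor of melanocytes and osteoclasts that is known to act on Gpnmb, had the largest fitted change of the 3. It was at 5.71 and 2.32 CPM in the sham libraries against 11.7 and 12.9 CPM after ovariectomy. Both ovariectomy libraries lay above both sham libraries, and the sham libraries differed widely from each other. The log2 fold change of 1.61 ± 0.43 SE did not pass (edgeR adjusted p = 0.0954), and it was 2.41 without sham replicate 1 (adjusted p = 0.000342) and 1.12 without sham replicate 2 (0.0455). Mitf was called higher with DESeq2 (0.0135), limma-voom (0.0366), no filter (0.000205) and a mean of 5 CPM (0.0378). The counts are per gene and do not separate the isoforms of Mitf.

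**Figure D2:**
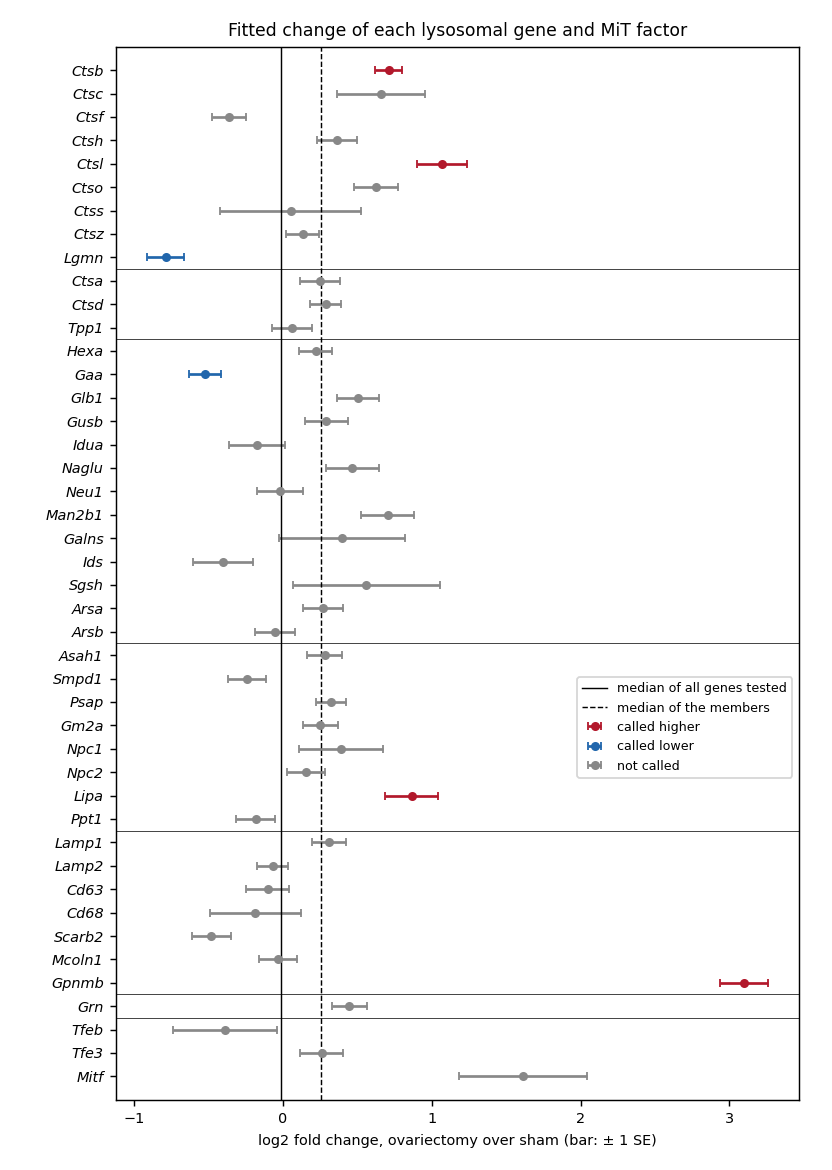
Log2 fold change (ovariectomy over sham) of each gene, with bars of 1 SE, in the same order as the plot of levels; red and blue mark genes called higher and lower, grey those not called. The solid line is the median of all genes tested (-0.02) and the dashed line that of the 44 genes (0.25), and Gpnmb at 3.10 lies far to the right of the rest.

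**Figure D3:**
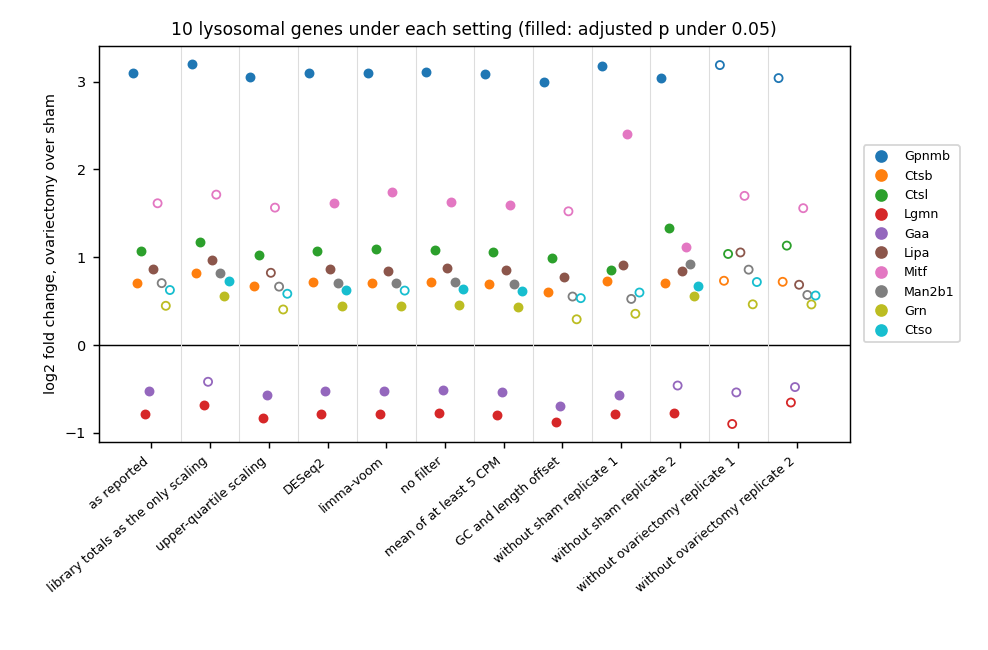
Log2 fold change of 10 genes as reported and under 11 alternatives, with filled circles where the adjusted p was under 0.05. The 6 genes called as reported kept their sign throughout, and all circles are open in the 2 fits without an ovariectomy library.

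Of 129 further lysosomal pathway genes, 127 were tested, 2 were higher and 1 lower, with a median log2 fold change of 0.10. These 3 calls make up 2.36%, against 4.18% of all genes. A positive log2 fold change was found for 84 of the 127 (66.1%, against 48.7% of all genes). Both ovariectomy libraries lay above both sham libraries for 46 (36.2%, against 25.5%) and below them for 21 (16.5%, against 23.9%). At an unadjusted p under 0.05 there were 29 (22.8%, against 18.4%). None of 22 tested subunits of the proton pump that acidifies the lysosome passed in edgeR (median 0.08). Of these subunits, 4 were at an unadjusted p under 0.05 (18.2%, against 18.4% of all genes) and 1 was called by DESeq2 (Atp6ap2). The 2 with the smallest p were Atp6v0a1 (log2 fold change 0.53 ± 0.14 SE with an edgeR adjusted p of 0.101) and Atp6v1b2 (0.49 ± 0.14 SE, 0.116). Of 19 other membrane proteins, 1 rose in edgeR (5.26%, against 2.98% of all genes), while DESeq2 called 4 higher (Clcn7, Glmp, Litaf and Pip4p1) and limma-voom 2 (Glmp and Litaf). Litaf, a protein of late endosomes, went from 135 ± 7.55 to 231 ± 10.7 CPM (log2 fold change 0.77 ± 0.12 SE with an edgeR adjusted p of 0.0154).

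None of the 10 genes of mannose 6-phosphate tagging and sorting was called by edgeR, DESeq2 or limma-voom (median 0.10, 2 at an unadjusted edgeR p under 0.05), with Sort1, the sorting receptor sortilin, at -0.54 ± 0.16 SE (edgeR adjusted p = 0.127) and Nagpa at 0.48 ± 0.19 SE (0.232). None of 27 autophagy genes was called by edgeR (median 0.13), with 11 at an unadjusted p under 0.05 (40.7%, against 18.4% of all genes). DESeq2 called 4 of them higher (Atg7, Gabarapl1, Sqstm1 and Uvrag) and limma-voom 1 (Sqstm1). Sqstm1, the autophagy receptor p62 and a known target of Tfeb, was at 894 ± 29.8 CPM in sham and 1197 ± 33.0 CPM after ovariectomy (SD) (log2 fold change 0.42 ± 0.10 SE with an edgeR adjusted p of 0.0644), and Uvrag had a log2 change of 0.54 ± 0.14 SE (0.0825). Of 23 tested regulators of the MiT factors, 0 were called by edgeR (median 0.18) and 1, Rragd, by DESeq2 and limma-voom. At an unadjusted edgeR p under 0.05 there were 2 (8.70%, against 18.4% of all genes). Rragd, a GTPase that recruits mTOR to lysosomes, was at 1.74 ± 1.77 CPM in sham and 10.4 ± 3.46 CPM after ovariectomy (SD) (log2 fold change 2.58 ± 0.71 SE with an edgeR adjusted p of 0.104), and Rheb, which activates mTOR, had a log2 change of 0.36 ± 0.12 SE (0.175).

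Of the 4 cystatins, 1 fell (25.0%, against 1.20% of all genes). Cst3, cystatin C, a secreted inhibitor of cysteine cathepsins, was at 3565 and 3732 CPM in the sham libraries against 2532 and 1965 CPM after ovariectomy (log2 fold change -0.70 ± 0.13 SE with an edgeR adjusted p of 0.0306). It was more abundant than any cathepsin in all 4 libraries. Ctsk, the collagen-degrading cathepsin of osteoclasts, is not among the 44 genes and rose alongside Ctsb and Ctsl, from 143 and 152 CPM to 306 and 292 CPM (log2 fold change 1.02 ± 0.11 SE with an edgeR adjusted p of 0.00537).

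Several of the 44 genes are abundant in macrophages and osteoclasts, so markers of these cells are given beside them. Of 18 macrophage markers, 15 could be tested and 0 were called by edgeR, with a median log2 fold change of 1.10. Of those tested, 5 were at an unadjusted p under 0.05 (33.3%, against 18.4% of all genes). DESeq2 called 3 higher (Cd14, Fcgr3 and Lyz2) and limma-voom 0. Their summed level was 99.4 and 108 CPM in the sham libraries against 136 and 181 CPM after ovariectomy. No marker was at 0 in all libraries, and 14 of the 18 stayed under 10 CPM in every library. Of the 15 tested markers, 12 had a positive log2 fold change (80.0%, against 48.7% of all genes). Both ovariectomy libraries lay above both sham libraries for 10 (66.7%, against 25.5% of all genes) and below them for 1. Adgre1 (F4/80) was at 0.268 and 0.134 CPM in the sham libraries against 1.56 and 0.831 CPM after ovariectomy. Csf1r lay between 0.0892 and 8.50 CPM, with overlapping groups. Ctss and Cd68, among the members that macrophages express, had log2 fold changes of 0.05 ± 0.47 SE and -0.19 ± 0.31 SE, with overlapping groups. Other members found in macrophages were called higher (Gpnmb, Ctsl, Lipa and Ctsb) or lower (Lgmn). Of 10 osteoclast markers, 6 could be tested, 1 was higher (Ctsk) and 1 lower (Mmp9, -1.90 ± 0.36 SE on the log2 scale, edgeR adjusted p = 0.0341). Each is 16.7% of those tested, against 2.98% higher and 1.20% lower of all genes. The summed level of the 10 markers was 214 and 291 CPM in the sham libraries against 374 and 365 CPM after ovariectomy. Calcr, Ocstamp, Dcstamp and Oscar stayed too low to test. Melanocyte markers summed to at most 5.51 CPM in a library. Acp5, an osteoclast phosphatase, was at 12.6 and 19.4 CPM in the sham libraries against 33.3 and 31.0 CPM after ovariectomy and was not called by edgeR (adjusted p = 0.0680), while DESeq2 and limma-voom called it higher. The part of any of these cells in the changes of Gpnmb, Ctsb, Ctsl and Lipa was not tested.

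Markers of other blood cells moved with the groups as well. Of 12 granulocyte markers 3 were higher, with summed levels of 141 and 90.1 CPM in the sham libraries against 189.8 and 297 CPM after ovariectomy. Of 9 tested erythroid markers 4 were higher, and of 6 tested lymphocyte markers 2. The shares were 25.0% (granulocyte), 44.4% (erythroid) and 33.3% (lymphocyte), against 2.98% of all genes tested. Ctsc, expressed by granulocytes, was highest in ovariectomy replicate 2, the library with the largest summed level of granulocyte markers. That library also had the largest sums of macrophage, erythroid, lymphocyte, endothelial, pericyte and smooth muscle, and fibroblast markers. The part of any of these cells in the level of Ctsc was not tested.

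**Figure D4:**
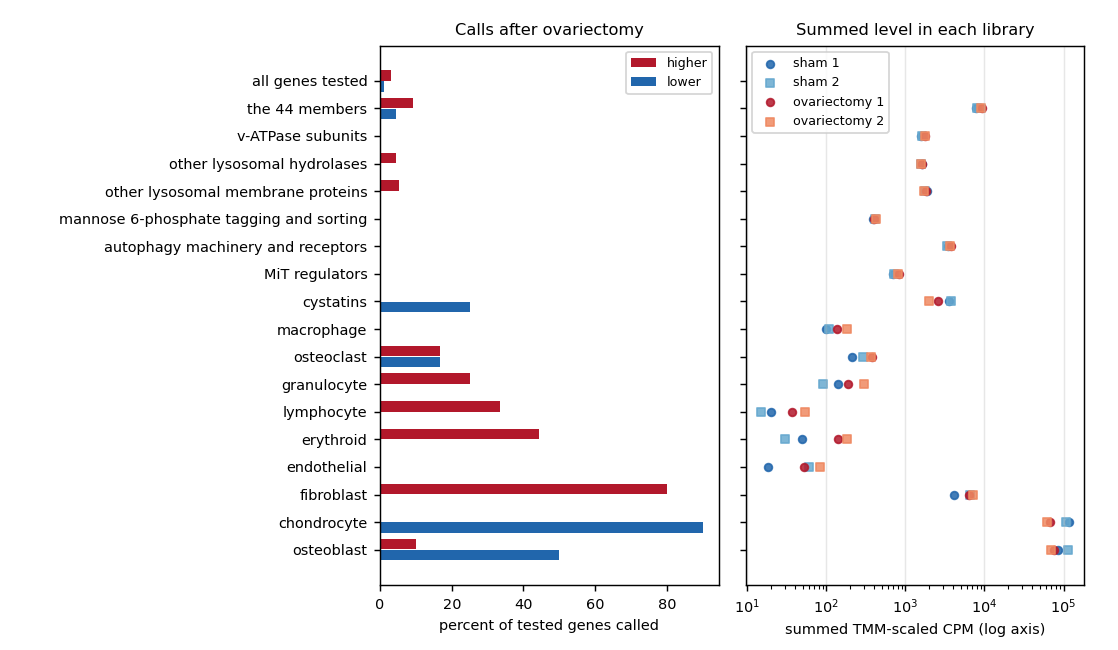
Left, percent of the tested genes of each list called higher (red) or lower (blue) after ovariectomy, with all genes tested at the top; right, summed TMM-scaled CPM of each list in the 4 libraries (log axis). The 44 genes show 9.09% higher and 4.55% lower. The height of a sum depends on which genes a list holds, so sums of different lists do not compare amounts of cells.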

How the data were processed

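The authors deposited 1 table of raw counts per gene for 4 libraries. Trimming used Trim Galore 0.6.6 and counting featureCounts 2.0.1, with GRCm38 (mm10) as the build, per the submitters' processing notes. The sources used here do not give the aligner, annotation release, strand setting or filters. GENCODE M21 (GRCm38) named 55227 of the 55487 IDs and gave positions and exon lengths. Genes were kept by filterByExpr, scaled by TMM and tested for a difference between the groups in edgeR 4.0.16 (R 4.3.3, quasi-likelihood F test, two-sided, group as the only term), with Benjamini-Hochberg adjustment over 17120 genes. A gene is called where the adjusted p is under 0.05. The SE is the log2 fold change divided by the square root of F, and folds are taken from it. The common biological coefficient of variation was 0.317. The function was tested on simulated data. Alternatives were DESeq2 1.42.0, limma-voom (limma 3.58.1), other scalings and filters, a GC and length offset, a replicate block and leaving out each library. Genes described in full were those called, the MiT factors and the gene with the smallest p in each role group, with up to 4 called genes (or the 2 with the smallest p) of each other pathway list. Any other gene given with values was chosen after they were seen. The members and lists were chosen with earlier results of these data known. One count equals 0.0422 to 0.0547 CPM before TMM scaling, depending on the library. The list of other hydrolases is not reported gene by gene here.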

Additional observations from a re-analysis of the deposited data

How the results depend on the processing

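The number of all genes called was 716 as reported, 1355 with DESeq2, 1656 with no filter, 1103 at a mean of 5 CPM, and between 0 and 1835 when 1 library was left out. Higher genes made up 71.2% of the calls as reported, 82.2% with library totals alone and 58.5% with the GC and length offset. The number of lysosomal genes called higher, 4 as reported, was 7 with library totals and with limma-voom. It was 9 with DESeq2 and with no filter, and 8 at a mean of 5 CPM. The number called lower, 2 as reported, was 1 with library totals and 3 at a mean of 5 CPM (Scarb2 added). The cause of these differences was not tested. Nothing in the sources used here says that the replicate numbers pair the libraries. Deviations of same-numbered libraries from their group means correlated with r = 0.0043 across genes. That value cannot show whether the libraries were handled as pairs. With the replicate block, 1074 genes were called, among them 6 lysosomal genes higher and 2 lower, with Man2b1 (adjusted p = 0.0141) and Mitf (0.0295) added.

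Signs turned for 10 members, none of them called. With library totals the log2 fold change was 0.084 for Neu1, 0.051 for Arsb, 0.037 for Lamp2 and 0.073 for Mcoln1, and with the GC and length offset it was -0.036 for Tpp1. When 1 library was left out it lay between -0.30 and 0.54 for Ctss, -0.052 and 0.20 for Tpp1, -0.34 and 0.029 for Idua, -0.047 and 0.021 for Neu1, -0.13 and 1.26 for Galns, -0.12 and 0.036 for Arsb, -0.29 and 0.090 for Cd63, -0.43 and 0.13 for Cd68, and -0.12 and 0.069 for Mcoln1. With 2 libraries a group and a spread between libraries of this size, a change that was not called may still be present.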
